A study of Bos taurus with 8 samples.

Results

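The nuclear-encoded subunits of the oxidative phosphorylation machinery were followed on bovine arrays that compared blastocysts cultured with and without the radical generator AAPH. The members were the probes whose annotated gene symbol began as NDUFA, NDUFB, NDUFC, NDUFS or NDUFV with a number, as UQCR, as COX4 to COX8 or as ATP5, or was SDHA, SDHB, SDHC or SDHD. This gave 124 of 43794 probes and 80 of 15227 named genes. Complex I had 37 genes, complex II 4, complex III 7, complex IV 16 and complex V 16. The complex was read from the symbol, which places NDUFA4 with complex I although it is now counted with complex IV. NDUFA4L2, COX4NB and ATP5S, as the old annotation has them, name proteins that are not canonical subunits of the complexes they are listed under.

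Embryos came from slaughterhouse ovaries and were matured, fertilized and cultured in vitro. AAPH decomposes in medium into peroxyl radicals, and it was given at 0.01 mM from day 3 to day 7 of culture. Control embryos were cultured in the same medium without AAPH. Pools of 10 blastocysts were collected 196 hours after fertilization, with 4 pools per treatment, and their RNA was amplified in 2 rounds before labelling. RNA of an AAPH pool and RNA of a control pool were hybridised together on each of 8 two-colour arrays, with AAPH in Cy5 on 4 of them and in Cy3 on the other 4. Arrays of opposite orientation were averaged to 4 swap pairs, so that n = 4 throughout, and the pairing itself was derived from the data. In a pool of whole embryos, fewer cells of a type and less RNA per cell cannot be told apart.

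Oxidative phosphorylation couples electron transfer to ATP synthesis in the inner mitochondrial membrane. Complex I (NADH dehydrogenase) and complex II (succinate dehydrogenase) pass electrons to ubiquinone, complex III (the cytochrome bc1 complex) passes them on to cytochrome c, and complex IV (cytochrome c oxidase) reduces oxygen to water. Complexes I, III and IV pump protons, and complex V (ATP synthase) uses the gradient to make ATP. The electron transport chain is also a main source of superoxide in cells, and the blastocyst is the stage at which the mammalian embryo raises its oxygen use. No gene of the mitochondrial genome was among the probes' symbols, so the values below concern the nuclear share of each complex.

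Of the members, 121 probes and 78 genes were above background and entered the tests. COX6A2, the heart and muscle form of subunit VIa, was above background on 0 of 8 arrays in either treatment, and COX7A1, the muscle form of subunit VIIa, on 3 arrays for AAPH and 2 for control. The second probe of SDHA was above background on 1 array in each treatment. Each gene is represented by its brightest kept probe. By this measure 69 of the 78 subunit genes were above background in both dyes of all 8 arrays, against 6661 of 12602 genes in all. The other 9 were NDUFA10, NDUFA4L2, NDUFB7, NDUFS6, NDUFV1, UQCRC1, UQCRH, COX6B2 and ATP5D. NDUFA4L2 entered only through AAPH RNA, with 5 arrays against 3, and COX6B2, the testis form of subunit VIb, only through control RNA, with 4 arrays against 2. UQCRFS1, COX4I2 and COX8C were not measured under these names.

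Most subunit genes had a slightly negative ratio in AAPH blastocysts, and no single subunit passed the test. The median log2 ratio of AAPH over control was -0.07 over the 78 genes and 0.01 over all 12602 genes. Of the 78 genes, 50 had a negative mean ratio and 28 a positive one (35.9% positive, against 52.2% of all genes). The split was 58 negative to 20 positive when arrays were centred on their median in place of loess. With limma and Benjamini-Hochberg adjustment, 0 of the 121 subunit probes had an adjusted p under 0.05, as did 0% of all 32923 probes tested. The smallest adjusted p among the subunits was 0.181, for a probe of ATP5G1. At an unadjusted p under 0.05, 21 subunit probes were lower in AAPH (17.4%, against 7.77% of all probes) and 3 were higher (2.48%, against 5.7%). Leaving out pair 1, 2, 3 or 4 gave 33 and 8, 11 and 1, 8 and 0, and 15 and 3. Centring on the median gave 41 and 1. Over all 32923 probes, both directions together, these settings gave 5110, 3254, 3010, 3200 and 5406, against 4435 in the main test. With 4 pairs, 27 probes of 24 genes were lower in every pair (22.3%, against 10.6% of all probes) and 7 probes of 7 genes were higher in every pair (5.79%, against 11.6%). Without the filter on dim probes the counts in every pair were 27 lower and 8 higher of 124 (9.23% and 11.9% of all probes). The 21 and the 27 lower probes both include 1 ATP5C1 probe that exceeded background on 2 arrays for AAPH and 6 for control. That probe entered through control RNA alone, as did COX6B2, which is 1 of the 50 genes with a negative ratio. All these counts describe the list and carry no test, since the members share pools and arrays.

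Over genes, 16 of the 78 were lower in every pair (9.49% of all genes were) and 4 were higher in every pair (12.5% of all genes). The 16 were NDUFA7, NDUFB7, NDUFB8, NDUFB11, NDUFS3 and NDUFV1 of complex I, SDHA of complex II, UQCR of complex III, COX4, COX4NB, COX5B and COX6B1 of complex IV, and ATP5A1, ATP5B, ATP5C1 and ATP5G1 of complex V. COX4NB, now named EMC8, is listed by its symbol and is not a subunit of complex IV. ATP5A1 and ATP5B were both at -0.04, on probes close to the highest signal of the arrays. The 4 higher ones were NDUFA6 and NDUFS4 of complex I and ATP5O and ATP5S of complex V. At an unadjusted p under 0.05 there were 9 lower genes (7.35% of all genes were) and 3 higher ones (7.66% of all genes). The subunit ratios ran from -0.45 for COX8B to 0.37 for SDHD. The median SD of a subunit gene over the 4 pairs was 0.231, and that of all genes 0.179, and 58 of the 78 subunit ratios were smaller in size than their own SD.

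**Figure D1:**
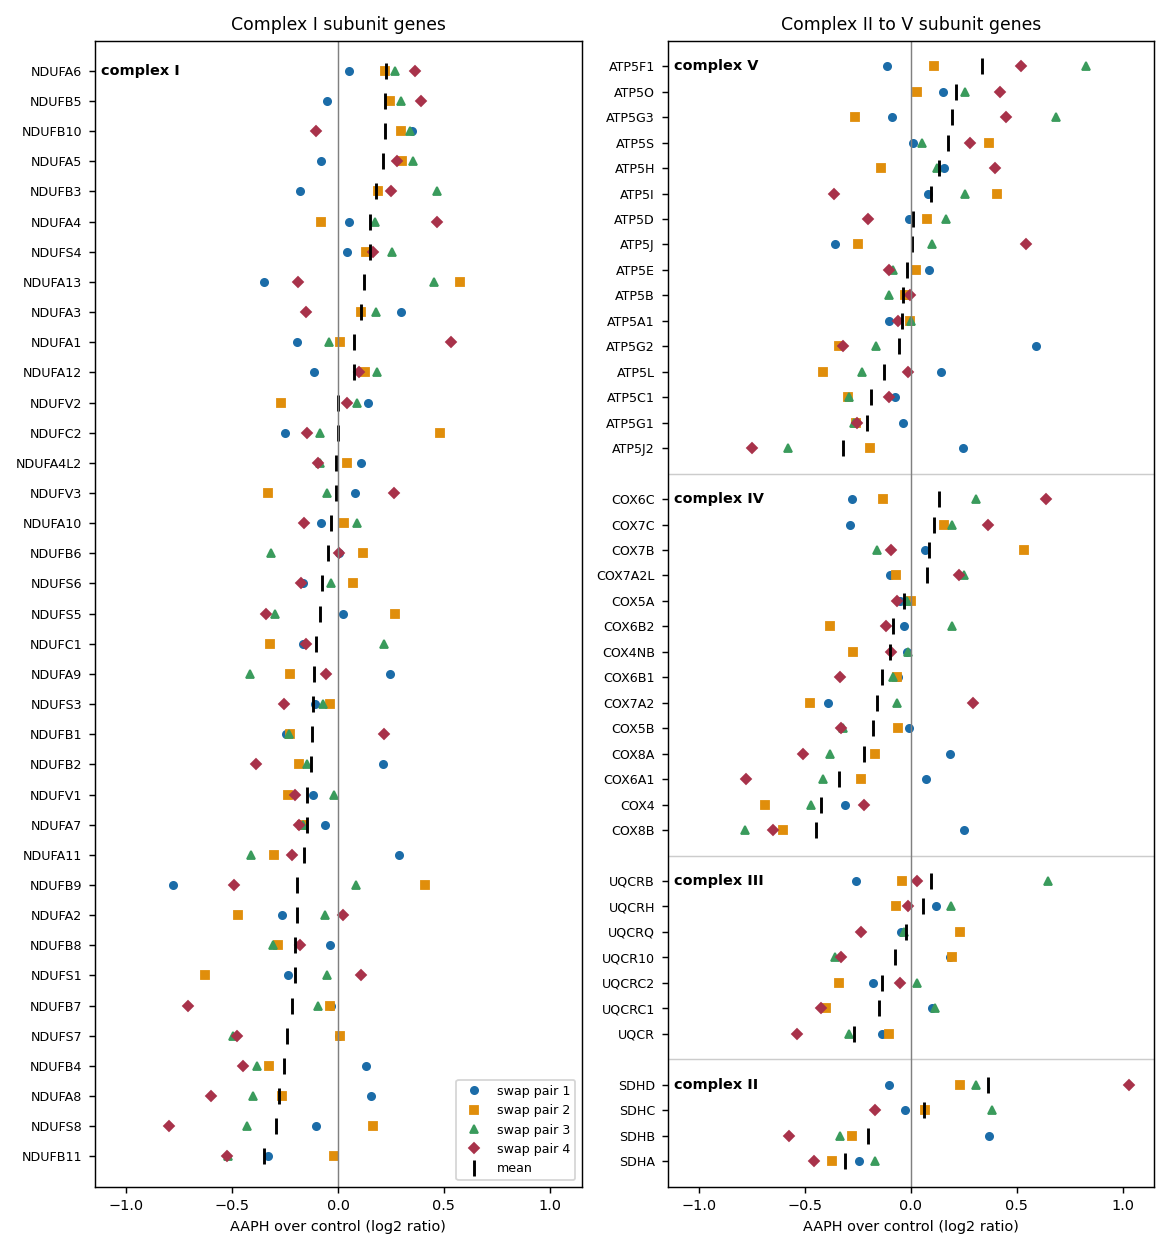
Log2 ratio of AAPH over control (horizontal axis) of the 78 measured subunit genes, complex I on the left and complexes II to V on the right. Coloured symbols are the 4 swap pairs and black ticks their mean. Means run from -0.45 (COX8B) to 0.37 (SDHD), and the 4 pairs of most genes fall on both sides of 0.

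Complex I showed 25 genes with a negative mean ratio and 12 with a positive one, with a median of -0.09. The median was -0.05 in pair 1, 0.01 in pair 2, -0.05 in pair 3 and -0.15 in pair 4. NDUFB11, an accessory subunit of the membrane arm, was lowest. Its level, as log2 signal after scaling between arrays, was 10.43, 9.34, 9.96 and 8.55 in the AAPH pools of pairs 1 to 4 and 10.76, 9.35, 10.48 and 9.08 in the matching control pools. The pools of different pairs lay further apart than AAPH and control within a pair, so the groups overlapped. The NDUFB11 ratio was -0.35 ± 0.24 (SD, n = 4), with pair values of -0.33, -0.02, -0.52 and -0.52 (limma, unadjusted p = 0.0123, adjusted p = 0.265).

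NDUFB8, a membrane-arm subunit often used as a marker of assembled complex I, was at -0.20 ± 0.12, with -0.04, -0.28, -0.31 and -0.18 in pairs 1 to 4 (adjusted p = 0.322). NDUFA7, an accessory subunit of the peripheral arm, was at -0.14 ± 0.06, with -0.06, -0.17, -0.17 and -0.18 (adjusted p = 0.375). Both were lower in every pair by small amounts, and the NDUFA7 pair values had the narrower spread. On single arrays, before dye orientations were averaged, NDUFA7 ran from -0.58 to 0.24 and was negative on 6 of 8. NDUFB8 was negative on 7 of 8.

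Among the subunits with a positive ratio, NDUFA6 had the smallest p. It belongs to the LYR-motif family and anchors the acyl carrier protein of the peripheral arm. Its level was 12.23, 12.66, 12.34 and 11.95 in AAPH pools and 12.18, 12.43, 12.07 and 11.59 in control pools. Each AAPH pool was above the control pool of its pair, although the ranges of the groups overlapped. The ratio was 0.23 ± 0.13, with 0.05, 0.22, 0.27 and 0.36 in pairs 1 to 4 (unadjusted p = 0.0202, adjusted p = 0.298). NDUFB5, of the membrane arm, was at 0.22 ± 0.19, with -0.05, 0.24, 0.30 and 0.39. NDUFA5, of the peripheral arm, was at 0.21 ± 0.20, with -0.08, 0.30, 0.35 and 0.28. These last 2 were negative in pair 1 alone, and their adjusted p-values were 0.361 and 0.376.

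Of the 6 measured core subunits of complex I, 5 had a negative mean ratio and NDUFV2 was at 0. NDUFV1, which binds NADH and flavin mononucleotide, was at -0.14 ± 0.10 and lower in every pair, with -0.12, -0.24, -0.02 and -0.20. Its signal exceeded background on 7 AAPH and 6 control measurements of 8 each. NDUFS1, the large iron-sulfur subunit next to it in the electron path, was at -0.20 ± 0.32 for the brightest of 3 probes, with -0.24, -0.63, -0.05 and 0.11, while its other probes had means of -0.09 and 0.14. NDUFV2, a further iron-sulfur subunit of the NADH-binding end, was at 0.00 ± 0.19. The core subunits NDUFS3, NDUFS7 and NDUFS8 had means of -0.12, -0.24 and -0.29. NDUFS7 was near 0 in pairs 1 and 2 (0.00 and 0.01) and negative in pairs 3 and 4 (-0.49 and -0.48). In pairs 1 and 2 these values average opposite array ratios, -0.45 with 0.46 and -0.57 with 0.59. The arrays of pairs 3 and 4 also differed by dye orientation, -0.93 with -0.06 and -0.99 with 0.03. NDUFS4, an accessory subunit added late in assembly, was at 0.15 ± 0.09 and higher in every pair, at 0.04, 0.13, 0.25 and 0.17 (adjusted p = 0.392). NDUFB9 had the widest spread of complex I, with -0.78, 0.41, 0.08 and -0.49.

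Complex II is small enough to describe in full, and its 4 genes went different ways. SDHA, the flavoprotein that oxidizes succinate, had a level of 12.60, 11.76, 11.88 and 11.49 in AAPH pools and of 12.85, 12.13, 12.05 and 11.94 in control pools. The AAPH pool was the lower one in all 4 pairs. The SDHA ratio was -0.31 ± 0.13, with -0.25, -0.37, -0.17 and -0.46 in pairs 1 to 4, a 1.24-fold higher mean signal in control. It was negative on 7 of the 8 arrays and equal on both sets of slides, at -0.31 on slide 26 and -0.31 on slides 78 and 79 (unadjusted p = 0.00453, adjusted p = 0.216).

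SDHB, the iron-sulfur subunit that receives the electrons from SDHA, had levels of 14.25, 13.86, 13.79 and 13.88 in AAPH pools and 13.88, 14.14, 14.12 and 14.46 in control pools. Pair 1 ran against the other pairs. Its ratio was -0.20 ± 0.40, with 0.37, -0.28, -0.33 and -0.57, and it was -0.40 without pair 1. The second SDHB probe gave -0.27 ± 0.24, with 0.08 in pair 1 and between -0.42 and -0.37 in the other pairs.

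SDHC and SDHD are the membrane anchors of the complex and hold its heme. SDHC had levels of 11.05, 11.35, 10.95 and 10.70 in AAPH pools and 11.08, 11.28, 10.57 and 10.88 in control pools, and its ratio was 0.06 ± 0.24. Its second probe was higher in every pair and on all 8 arrays, at 0.18 ± 0.22 (adjusted p = 0.46). SDHD had levels of 13.73, 14.02, 14.58 and 14.52 in AAPH pools and 13.83, 13.78, 14.27 and 13.49 in control pools. Its ratio was 0.37 ± 0.48, with -0.10, 0.23, 0.31 and 1.03, and it was 0.14 without pair 4. The second SDHD probe was lower on all 8 arrays, at -0.14 ± 0.06, although it was above background on 7 arrays in each treatment. The 2 SDHD probes therefore disagreed in sign. The median of the 4 genes was -0.07, and it turned to 0.03 without pair 4.

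**Figure D2:**
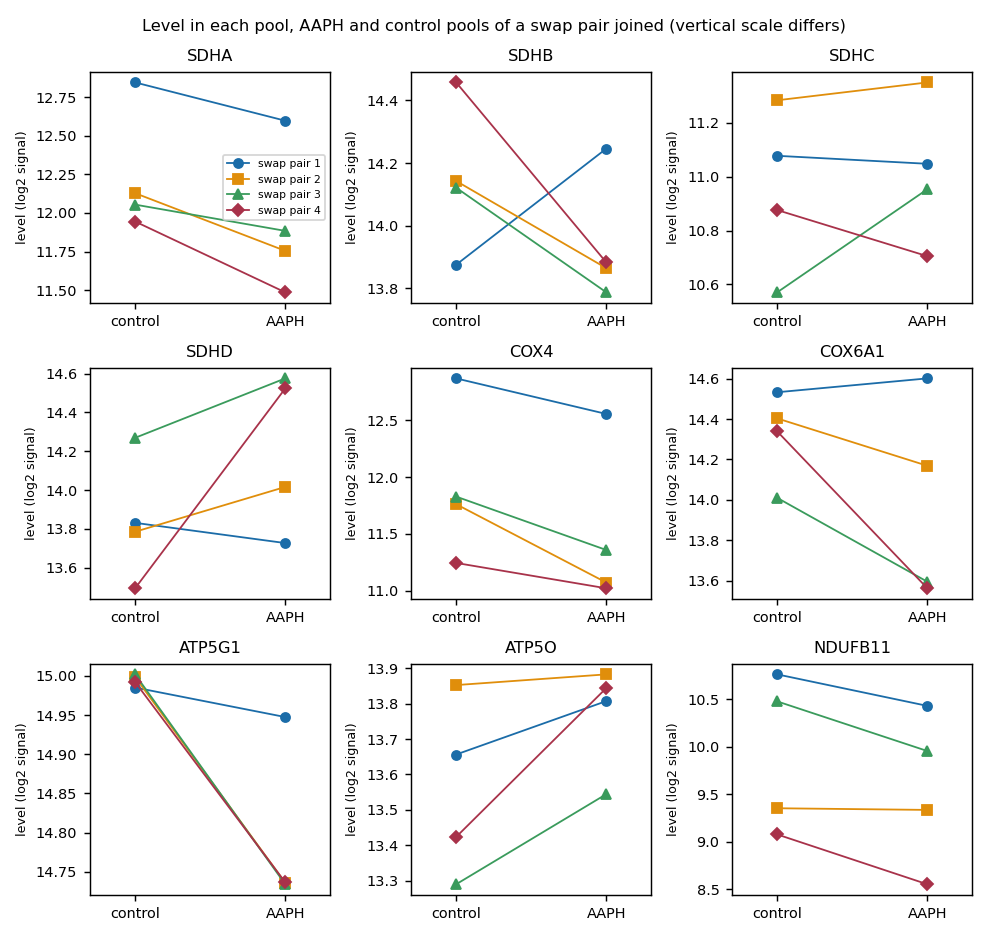
Level (log2 signal, scaled between arrays) of 9 subunit genes in control and AAPH pools, with lines joining the 2 pools of a swap pair and a separate vertical scale for each gene. SDHA and COX4 lines go down in all 4 pairs and ATP5O lines go up, while SDHB and SDHD lines go both ways. The 4 control pools of ATP5G1 lie between 14.98 and 15.00.

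Complex III had 5 genes with a negative ratio and 2 with a positive one. Its median was -0.08, with -0.05, -0.07, 0.03 and -0.24 in pairs 1 to 4, and it was 0.01 without pair 4. UQCR, the smallest subunit of the complex and now named UQCR11, had levels of 10.95, 10.63, 10.31 and 10.27 in AAPH pools and 11.08, 10.73, 10.60 and 10.81 in control pools. Every AAPH pool was below the control pool of its pair. The ratio was -0.27 ± 0.20, with -0.13, -0.10, -0.29 and -0.54 (unadjusted p = 0.023, adjusted p = 0.304).

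The core proteins UQCRC1 and UQCRC2 hold the dimer together on the matrix side. UQCRC2 was at -0.14 ± 0.16, with -0.18, -0.34, 0.03 and -0.05. UQCRC1 was at -0.15 ± 0.30, with 0.10, -0.40, 0.11 and -0.42, and lay close to background. UQCRH, the hinge protein near cytochrome c1, was at 0.06 ± 0.12, and UQCRB, which lies near the ubiquinone site, was at 0.09 ± 0.39, with 0.65 in pair 3 and between -0.26 and 0.03 in the others. None of these 4 ratios exceeded the spread of its pairs. CYC1, the cytochrome c1 subunit that the symbol rule leaves out, was at -0.13 ± 0.42.

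Complex IV had a median of -0.12, with -0.04, -0.15, -0.07 and -0.11 in pairs 1 to 4. Of its 14 measured genes 10 had a negative ratio. COX4NB is among them, and so is COX6B2, which entered through control RNA alone. COX4, now named COX4I1 and the form of subunit IV found in most tissues, had levels of 12.56, 11.07, 11.36 and 11.02 in AAPH pools and 12.87, 11.76, 11.83 and 11.24 in control pools. The AAPH pool was lower in each pair, and the pools of pair 1 were the highest of both groups. The ratio was -0.42 ± 0.20, with -0.31, -0.69, -0.47 and -0.22, and it was negative on 8 of 8 arrays (unadjusted p = 0.00307, adjusted p = 0.192). COX4 had 1 probe, and its mean was -0.50 on slide 26 and -0.35 on slides 78 and 79. The median of the complex was -0.06 without pair 2.

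COX6A1, the form of subunit VIa outside heart and skeletal muscle, had levels of 14.60, 14.17, 13.59 and 13.56 in AAPH pools and 14.53, 14.40, 14.01 and 14.34 in control pools. The AAPH pool was lower in pairs 2 to 4 and slightly higher in pair 1. Its ratio was -0.34 ± 0.35, with 0.07, -0.23, -0.41 and -0.78 (adjusted p = 0.361). Its other probes gave -0.30 and -0.25. COX8B, the muscle form of subunit VIII in cattle, had levels of 9.5, 8.52, 8.21 and 8.56 in AAPH pools and 9.25, 9.13, 9.0 and 9.21 in control pools. It was above background on every array in both treatments, unlike the muscle forms COX6A2 and COX7A1. The COX8B ratio was -0.45 ± 0.47, with 0.25, -0.61, -0.79 and -0.65 (adjusted p = 0.353). COX8A, the form of subunit VIII found in most tissues, had the same signs pair by pair, with 0.18, -0.17, -0.38 and -0.51.

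Of 6 striated muscle markers on the array 3 were not kept. CKM, TNNT3 and MYL1, which encode muscle creatine kinase, fast troponin T and a myosin light chain, were above background on at most 3 arrays of a treatment, and TNNT3 on 0. The summed level of the 6 muscle markers on the array ran from 696 to 791 in AAPH pools and from 691 to 879 in control pools. MB, which encodes myoglobin, exceeded background on all 8 arrays for AAPH and for control, at a ratio of 0.19 ± 0.08, ACTA1 on 5 in each, and TNNC2 on 6 and 5. MYH7 was not measured here.

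In the remaining isoform pairs of complex IV, COX6B1, the common form of subunit VIb, was at -0.14 ± 0.13, with -0.06, -0.07, -0.08 and -0.34, and COX6B2 was at -0.09 ± 0.24, with -0.03, -0.38, 0.19 and -0.12. COX6B2 entered through control RNA alone, so its sign supports nothing. COX7A2, the non-muscle form of subunit VIIa, was at -0.16 ± 0.35, with -0.39, -0.48, -0.06 and 0.29. COX5B was at -0.18 ± 0.17 and lower in every pair, with -0.01, -0.06, -0.32 and -0.33. The subunits with a positive ratio were COX7C at 0.11 ± 0.28, COX7A2L at 0.08 ± 0.19, COX6C at 0.13 ± 0.42 and COX7B at 0.09 ± 0.31. COX7A2L is a factor that joins complexes III and IV into supercomplexes. Its 3 probes had means of 0.08, 0.02 and -0.29, and the lowest was negative in every pair (adjusted p = 0.256). None of these positive ratios exceeded the spread of its pairs.

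Complex V had as many positive as negative ratios, 8 of each, and a median of -0.01. In pairs 1 to 4 its median was 0.00, -0.08, 0.03 and -0.04. The 3 genes of the membrane c subunit, which encode the same mature protein behind different targeting peptides, differed among themselves. ATP5G1 had levels of 14.95, 14.74, 14.73 and 14.74 in AAPH pools and 14.98, 15.00, 15.00 and 14.99 in control pools for its brightest probe. On this probe the groups did not overlap, and the 4 control pools were almost identical. Its ratio was -0.21 ± 0.11, with -0.04, -0.26, -0.27 and -0.26 (unadjusted p = 0.0235, adjusted p = 0.307).

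The dimmer ATP5G1 probes gave ratios further from 0. One had levels of 13.50, 13.08, 12.97 and 12.86 in AAPH pools and 13.66, 13.53, 13.62 and 13.43 in control pools, a ratio of -0.46 ± 0.21 (unadjusted p = 0.0024, adjusted p = 0.181). The other was at -0.39 ± 0.16 and lower on all 8 arrays (adjusted p = 0.183). On both dimmer probes the levels of AAPH and control pools overlapped. All 12 pair values of the 3 ATP5G1 probes were negative. The raw signal of the brightest probe reached 76.1% to 93% of the highest probe's signal in control RNA and 64.9% to 83.4% in AAPH RNA. Whether the scanner range narrowed its ratio was not tested. ATP5G2 was at -0.06 ± 0.44, with 0.59, -0.34, -0.17 and -0.32, and ATP5G3 at 0.19 ± 0.45, with -0.09, -0.26, 0.68 and 0.45.

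ATP5C1, the rotating gamma subunit, had 3 probes with means of -0.19, -0.45 and -0.30, of which the third is set aside below. The brightest was at -0.19 ± 0.12, with -0.07, -0.30, -0.29 and -0.10 (adjusted p = 0.34). The probe at -0.30 exceeded background on 2 arrays for AAPH and 6 for control, so it entered through control RNA alone and its sign supports nothing. ATP5J2, a subunit of the membrane part, was at -0.32 ± 0.44, with 0.24, -0.19, -0.58 and -0.75. Of the core subunits, ATP5A1 was at -0.04 ± 0.05, with -0.10, -0.01, 0.00 and -0.06. ATP5B was at -0.04 ± 0.04, with -0.02, -0.03, -0.10 and 0.00. Both were negative in every pair by very small amounts. ATP5A1, ATP5B and 1 probe of COX5A were 3 of the 78 probes at or above 75% of the highest signal in both dyes of all arrays, where a difference may not register in full. This was not tested.

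ATP5O, which encodes the oligomycin sensitivity protein of the stalk, had levels of 13.81, 13.88, 13.54 and 13.84 in AAPH pools and 13.66, 13.85, 13.29 and 13.42 in control pools. It was higher in AAPH in every pair and on 8 of 8 arrays. The ratio was 0.21 ± 0.17, with 0.15, 0.03, 0.25 and 0.42 (unadjusted p = 0.0366, adjusted p = 0.349). ATP5S, a factor of the synthase that is no subunit, was at 0.18 ± 0.17, with 0.01, 0.37, 0.05 and 0.28, and its other probes were at 0.13 and -0.11. ATP5F1, the b subunit of the stalk, was at 0.34 ± 0.42, with -0.11, 0.11, 0.83 and 0.52, but its second probe was lower on all 8 arrays, at -0.22 ± 0.11 (adjusted p = 0.296). No direction is therefore given for ATP5F1. The complex V median was 0.00 in the authors' deposited ratios and 0.02 without pair 4, so it had no stable sign.

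**Figure D3:**
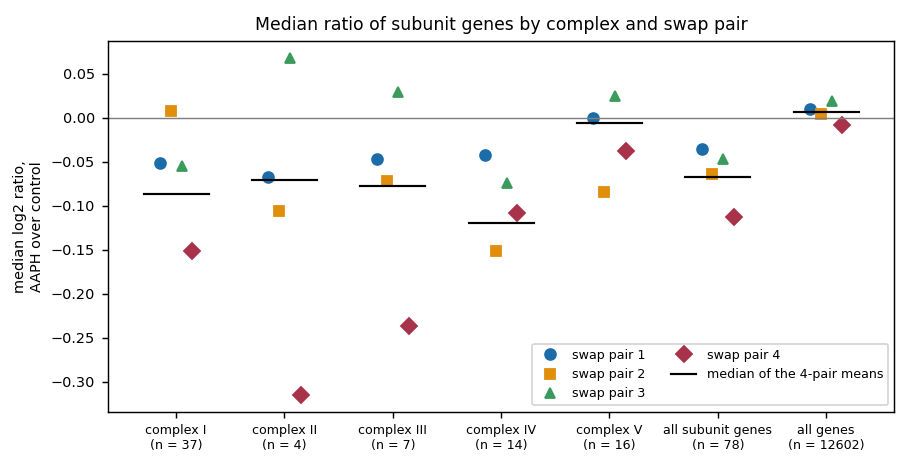
Median log2 ratio of AAPH over control (vertical axis) of the subunit genes of each complex, of all 78 subunit genes and of all 12602 genes, in each swap pair (symbols), with the median of the 4-pair means (black lines). Complex IV is below 0 in all 4 pairs, complexes II and III are above 0 in pair 3, and pair 4 is the lowest pair for complexes I, II and III.

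Probes for the same gene were compared, although they read the same RNA on the same arrays and are not independent. Of the 30 genes with several kept probes, 19 had 1 sign in all probes, 15 of them negative and 4 positive. The matching share over all genes is not given, so these counts only describe the list. The negative ones included ATP5G1, COX6A1, SDHB, NDUFA8 and NDUFS7, and the positive ones were NDUFA3, NDUFA5, NDUFS4 and SDHC. ATP5C1 is among the 15, although 1 of its 3 probes entered through control RNA alone. The widest gaps were those of ATP5F1 (0.34 and -0.22), SDHD (0.37 and -0.14) and NDUFS8 (-0.29 and 0.21). The second NDUFS8 probe was above background on 6 arrays in each treatment. SDHA, COX4, ATP5O, NDUFB11, NDUFA6 and UQCR rested on 1 kept probe each.

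**Figure D4:**
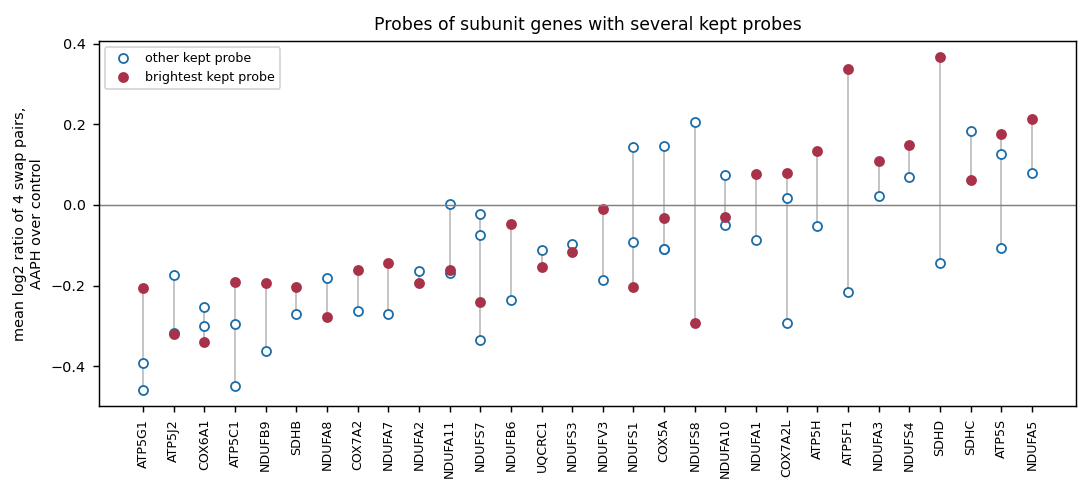
Mean log2 ratio of AAPH over control over 4 swap pairs (vertical axis) for each probe of the 30 subunit genes with several kept probes, ordered by the median of their probes. Filled points are the brightest kept probe and open points the others. Of these genes 15 lie wholly below 0 and 4 wholly above, and ATP5F1, SDHD and NDUFS8 have the widest gaps.

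The pattern over subunits differed between pairs. Positive ratios were counted for 32 of 78 subunit genes in pairs 1, 2 and 3 and for 26 in pair 4. In pairs 3 and 4 the same subunits tended to be high or low, with a Pearson correlation across the 78 genes of 0.64. In pairs 1 and 4 it was -0.23, and 40 of 78 genes had opposite signs there. Across all genes the corresponding values were 0.39 and 0.07, with 6272 of 12602 genes of opposite sign in pairs 1 and 4. Across the 78 genes the correlation was also -0.12 for pairs 1 and 2 and -0.25 for pairs 1 and 3. It was 0.38 for pairs 2 and 3 and 0.14 for pairs 2 and 4. In the same order, the values across all genes were 0.40, 0.19, 0.32 and 0.22. Genes within a pair share their RNA and arrays, so these values are a description of 4 pairs of pools. The genes behind the contrast included COX6C, with -0.28 in pair 1 and 0.64 in pair 4, ATP5J, a coupling subunit of the stalk, with -0.36 and 0.54, and SDHB, with 0.37 and -0.57.

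**Figure D5:**
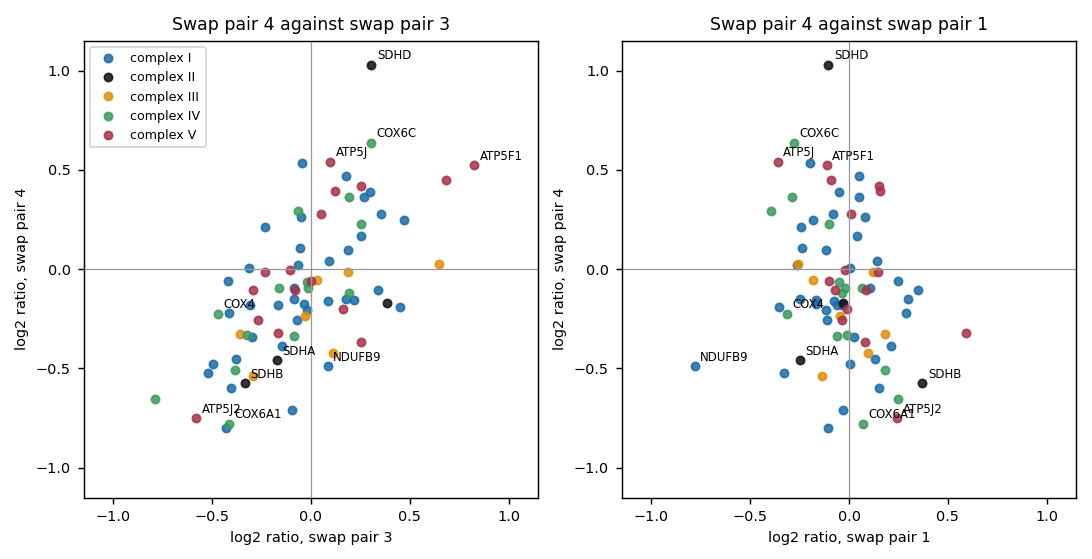
Log2 ratios of the 78 subunit genes in swap pair 4 against swap pair 3 (left) and against swap pair 1 (right), coloured by complex, with 10 genes named. The points follow a rising band on the left (r = 0.64) and none on the right (r = -0.23), where COX6C and ATP5J lie at the upper left and SDHB at the lower right.

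Pairs 1 and 2 lay on slide 26 and pairs 3 and 4 on slides 78 and 79, and the slide is named in the labels. On slides 78 and 79 fewer probes exceeded background in Cy5 than in Cy3, as given below. The difference of the ratio between the 2 sets of slides passed the test for 0 of 121 subunit probes, and for 0% of all probes, with a smallest adjusted p of 0.422 among the subunits. At an unadjusted p under 0.05, 12 subunit probes were higher on slide 26 (4.27% of all probes were) and 11 were lower (5.66% of all probes). The median ratio of the 78 genes was -0.03 within slide 26 and -0.06 within slides 78 and 79. Negative in both pairs of slide 26 and positive in both of the others were ATP5G3, ATP5J, COX6C, COX7A2L and UQCRB (6.41% of subunit genes and 7.94% of all genes). The reverse held for ATP5E, COX7B, NDUFA4L2, NDUFS5, NDUFS7 and UQCR10 (7.69% and 6.74%). COX6C was at -0.21 on slide 26 and 0.47 on the others, and ATP5G3 at -0.18 and 0.57. SDHA, COX4, ATP5O and ATP5G1 had 1 sign in all 4 pairs. Their sign on the 2 sets is fixed by that and is no separate result.

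Genes that assemble or supply the complexes were examined beside the subunits. Of 78 measured ones 0 passed the test with limma, while 2 were higher (7.66% of all genes were) and 9 lower (7.35% of all genes) at an unadjusted p under 0.05. Of 5 nuclear subunits outside the symbol rule 4 were measured. NDUFAB1, the mitochondrial acyl carrier protein, was at 0.30 ± 0.32, while USMG5 and MP68, small ATP synthase proteins, were at -0.19 ± 0.12 and -0.17 ± 0.15 and lower in every pair.

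The 4 measured assembly factors of complex III all had negative ratios, with a median of -0.27. TTC19, which clears a fragment of the Rieske protein from the complex, was at -0.33 ± 0.15, with -0.30, -0.47, -0.41 and -0.14 (unadjusted p = 0.00442, adjusted p = 0.214). BCS1L, which inserts the Rieske protein, was at -0.35 ± 0.34, with 0.05, -0.35, -0.31 and -0.79. LYRM7, a chaperone of the same protein, was at -0.21 ± 0.14, and C20ORF44, now UQCC1, at -0.14 ± 0.09. The last 2 and TTC19 were lower in every pair.

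Other lists lay nearer 0. The median was 0.01 over 11 complex I assembly factors, -0.07 over 3 of complex II, 0.00 over 17 of complex IV and 0.06 over 4 of complex V. It was -0.03 over 10 genes of coenzyme Q synthesis and 0.07 over 11 carriers, uncouplers and cytochrome c genes. SURF1, a complex IV assembly factor, was at -0.28 ± 0.23, and NDUFAF3, one of complex I, at -0.35 ± 0.31, each positive in pair 1 alone. Over 14 genes of mitochondrial DNA maintenance and biogenesis the median was 0.01. Within that list PPRC1, a coactivator of the PGC-1 family, was at -0.30 ± 0.19, and POLRMT, the mitochondrial RNA polymerase, at -0.26 ± 0.19, both lower in every pair. POLG2, the accessory subunit of the mitochondrial DNA polymerase, was at 0.41 ± 0.31 and higher in every pair (adjusted p = 0.273), and TFAM, which packages mitochondrial DNA, was at 0.07 ± 0.18.

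Markers of the cell types that the pools could hold were measured beside the subunits. Of 9 trophectoderm markers 8 had a negative ratio, with a median of -0.11 and -0.34 in pair 4. Their summed level ran from 73690 to 86203 in AAPH pools and from 81334 to 91188 in control pools. The 5 inner cell mass markers had a median of -0.02 and summed levels of 3773 to 7612 in AAPH and 3040 to 8026 in control. Hypoblast markers, 5 of 6 on the array, had a median of 0.02, with 46029 to 62948 in AAPH and 46056 to 59544 in control. All 8 fibroblast markers were on the positive side, at a median of 0.77, and had medians of 1.54, 1.31, 0.82 and 0.25 in pairs 1 to 4. Their summed level was 5977 to 35956 in AAPH pools and 4676 to 10243 in control pools. Of 6 cumulus and granulosa markers 5 had ratios above 0, at a median of 0.32, and summed levels of 979 to 2328 in AAPH and 876 to 1084 in control. The 3 blood markers had negative ratios, with 428 to 508 in AAPH and 472 to 681 in control. No fibroblast, cumulus, trophectoderm or blood marker was at background on all arrays. Their part in the subunit ratios was not tested.

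Per array, 17296 to 34778 probes exceeded background for AAPH and 15956 to 36065 for control. On slide 26 the counts ran from 30962 to 36065 over both dyes. On slide 78 they were 15956 and 18437 in Cy5 (control) and 28339 and 28856 in Cy3 (AAPH). On slide 79 they were 17296 and 22399 in Cy5 (AAPH) and 28511 and 30519 in Cy3 (control). Whether the lower Cy5 counts affected the ratios of slides 78 and 79 was not tested. The number of arrays limits the precision of every ratio. The labels do not state whether pools came from different fertilization runs. The p-values therefore reflect only how much these pools vary, which may be technical.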

How the data were processed

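RNA of bovine blastocyst pools was compared on 8 two-colour arrays. Per the file headers, the deposited scanner files hold mean and median foreground and background intensity for each spot and dye, as linear values. In each file 14 lines were statistics of columns and not spots, and were removed. No source used here names the scanner software. The authors' deposited table holds log2 ratios, and the submitters' processing notes name limma, with no version. Regressed on the scanner ratios, the columns gave slopes of 0.942 to 0.988 and correlations of 0.967 to 0.994, which sets the scale as log2 and the direction as AAPH over control for every array. The medians from array 1 to 8 were -0.0135, -0.00863, 0.0117, 0.00944, -0.0152, 0.00799, -0.0188 and -0.0197. How it was normalized is unknown, and it was used as an alternative setting.

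Intensities were processed in R 4.3.3 with limma 3.58.1, using normexp background correction (offset 50), loess within arrays with control spots at weight 0, and ratios turned to AAPH over control. Levels per pool were scaled with Aquantile. A probe was above background when its corrected signal was over the median of 153 negative control spots plus 3 median absolute deviations. Probes reaching this on 4 or more of 8 arrays in either treatment were kept, which left 32923 of 43794 probes. The labels do not say which arrays share extracts. Arrays 1 and 3, 2 and 4, 7 and 5, and 8 and 6 were paired as swap pairs 1 to 4, the pairing with the highest correlation of deviations from the mean of each orientation (0.138 to 0.553, other pairs -0.344 to 0.0501). The mean ratio does not depend on this choice, while its error does. Ratios were tested against 0 with lmFit and eBayes over all kept probes (3 residual degrees of freedom), adjusted by Benjamini-Hochberg, with 0.05 as the threshold. The procedure was tested on simulated data.

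Gene symbols are those of the array platform's table, which gave 1 symbol for 21790 probes, several for 0 and none for 22004. Of the 80 member genes 61 matched a current symbol and 19 a synonym in the RefSeq table of assembly ARS-UCD2.0. The members and lists were chosen with earlier results of these data known. Full values were given for all SDH genes, for up to 3 genes of smallest p in each direction in the other complexes, for the core subunits NDUFS1, NDUFV1, UQCRC1, ATP5A1 and ATP5B, for the c subunit genes and for complex IV isoforms. Other members are named with their mean, and genes outside the members were chosen after their values were seen. Alternatives covered centring, background correction, the deposited ratios, the filter, single arrays, slides, the probe of a gene and leaving out each pair.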

Additional observations from a re-analysis of the deposited data

Results flagged for a closer look

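In 6 of 84 results 1 swap pair stood apart from the other 3 by more than Dixon's critical value for a group of 4, and chance gives about 4.2. The ratio of NDUFB7 was -0.71 in pair 4 and between -0.09 and -0.03 in the others, in a gene close to background. COX6B1 was at -0.34 in pair 4 and between -0.08 and -0.06 in the others. NDUFB10 was at -0.11 in pair 4 but 0.30 to 0.35 in pairs 1 to 3. NDUFB1 was at 0.21 in pair 4, against -0.25 to -0.23 in pairs 1 to 3. In ATP5G1 and NDUFA7 pair 1 stood apart by being nearest to 0, at -0.038 and -0.061, while the others lay between -0.27 and -0.26 and between -0.18 and -0.17.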

How the results depend on the processing

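No subunit probe passed the test under any alternative that averaged swap pairs, and the count over all probes was 0 there too. At an unadjusted p under 0.05 the limma count over all probes was 4435 in the main test, 5406 with centring on the median and 3010 without pair 3. Treating the 8 arrays as single samples with a dye term gave 935 probes, 4 of them subunits (ATP5G1 by 2 probes, COX4 and SDHA). Adding the swap pair as a random block gave 315 and 1 (COX4). These fits count arrays taken to share their RNA as separate samples, in full or in part. With arrays centred on their median in place of loess, the medians were -0.18 for complex I, -0.22 for complex IV, -0.13 for complex V and -0.16 for all subunits, with 37 subunit probes lower in every pair (12% of all probes) and 2 higher (15%); the median of all probes was 0.01. The cause was not tested. Within slide 26 the medians were -0.016 for complex I and -0.030 for all subunits, with 50 subunit probes lower in both pairs (27.9% of all probes) and 20 higher (29%). Within slides 78 and 79, 64 were lower (33.2%) and 29 higher (32.3%). Fewer pairs make such counts larger by construction. Leaving out 1 pair gave 31 to 49 probes lower in every remaining pair and 8 to 17 higher, the highest of both without pair 1 (19.9% and 19.1% of all probes), and complex IV medians of -0.144 to -0.060, the last without pair 2. The complex II median turned positive within slide 26 (0.03) and without pair 4 (0.03), and that of complex III without pair 4 (0.01). Of the 78 genes 39 had 1 sign in every setting in which they were tested, 27 of them negative: 35 in all 17 settings and the other 4 in 16, since the stricter filter removed them. The slide difference passed for 0 probes in every setting run. The main test is itself paired, on ratios within arrays and swap pairs. By replicate number in the labels, no paired analysis was possible because those numbers count arrays of a dye orientation, and the orientations are not the groups compared. Genes near background and probes near the top of the scanner range are those whose ratios the signal limits.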
